A study of Mus musculus with 10 samples.

Results

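The collagen chain genes encode the polypeptides that wind in threes into the triple helix of every collagen molecule. They were chosen by symbol alone (Col, a type number, the letter a and a chain number) from the genes named on the array, which gave 42 genes out of 19505 named genes, each with 1 probe set. All 42 passed the filter on low values, so none of these was lost at that step. The family is not complete, since Col7a1 and Col12a1 are not among the 42 and were not analysed. The tumors came from B16OVA, a mouse melanoma line engineered to make ovalbumin, implanted under the skin of young adult female C57BL/6 mice. One group of 5 mice received BO-112, double-stranded Poly I:C carried by polyethylenimine, by injection into the tumor. The other 5 mice received the Vehicle, 5% glucose, in the same way, and by the study's methods whole tumors were taken within days of a repeated injection. All 10 tumors thus came from the same line and the same kind of host, and each was measured on 1 Clariom S array. A whole tumor mixes cancer cells with the stroma, vessels, blood cells and any skin or muscle taken along, and the array does not separate them.

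Collagen is the main protein of connective tissue. Fibril-forming chains (types I, III and V) are made mostly by fibroblasts, type IV chains build the sheets under epithelium and around vessels, and type VI chains form beaded filaments between fibrils. Other collagens decorate fibrils, span cell membranes or, as the multiplexins, sit in basement membranes.

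Some features of the arrays bear on every value below. Values are log2 expression values after Robust Multichip Average (RMA) processing, and differences are BO-112 minus Vehicle. The melanosome genes Dct and Pmel, which mark the melanoma cells, were high on every array, from 12.36 to 13.43 and from 11.89 to 13.20. BO-112 mice 2 and 5 stood apart. The separation of positive from negative control probe sets was 0.845 in the first of these and 0.855 in the second, against 0.867 to 0.891 on the other arrays, and these arrays also had the lowest estimated weights (0.312 and 0.229). BO-112 mouse 5 further had the highest skeletal muscle marker score (3.33) and the lowest melanocyte lineage score (-1.34), and BO-112 mouse 2 the highest epidermis and hair score (2.23). A marker score is the mean deviation of a marker list from its Vehicle mean, in log2 units. Where leaving these mice out moved the difference of a chain or pair described singly by over 1.5 times or turned its sign, the value without them is given, except for Col13a1.

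The main question was whether collagen RNA differed between BO-112 and Vehicle tumors. No collagen chain passed the test. With limma and Benjamini-Hochberg adjustment over 21792 probe sets, 0 of 42 chains reached an adjusted p under 0.05, where 5.22% of all tested probe sets did. When single mice were left out, the background ran from 1.59% (without Vehicle mouse 2) to 14.4% (without BO-112 mouse 4). It was 0.124% with array contrast as a covariate and 0.468% with the mouse number as a block. At such shares a count of 0 among 42 says little, and at 5.22% it does not set the chains apart from other probe sets. With the B-statistic over 0 used in the study, 0 of 42 chains passed, against a background of 2.18%. At an unadjusted limma p under 0.05 there were 3 chains, Col18a1, Col6a6 and Col9a1, which is 7.14% of the chains, beside 25.02% of all probe sets. No chain had groups that did not overlap, while 8.69% of all probe sets did. The median log2 difference of the 42 chains was 0.048 and that of all tested probe sets 0.014, and the median absolute difference was 0.125 for the chains and 0.186 for all. Of the 42 chains 27 had a positive estimate, and this fell to 16 with each array centred on its median and to 13 without BO-112 mice 2 and 5, so no direction is read for the family.

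**Figure D1:**
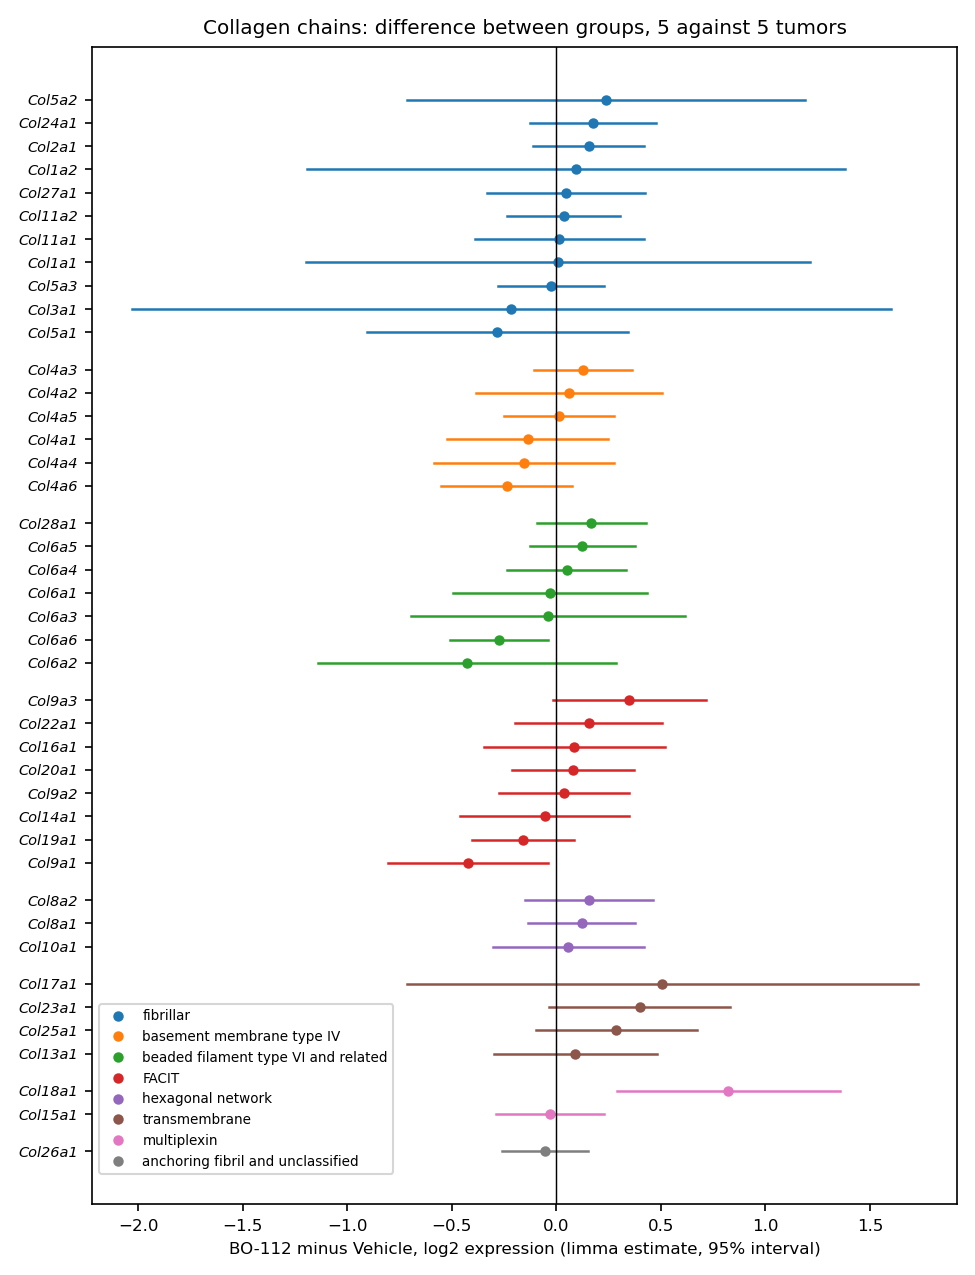
Log2 difference between BO-112 and Vehicle tumors for each of the 42 collagen chains (points) with its 95% interval from limma (lines), grouped by collagen class. Col18a1 lies highest at 0.82, and the intervals of Col1a1, Col1a2 and Col3a1 reach beyond 1 in both directions.

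The absence of calls covers estimates of very unequal precision. For 35 chains the 95% interval of the difference lay wholly between -1 and 1, so that a doubling or a halving was outside it. For the other 7 chains the interval reached 1 or -1 (Col1a1, Col1a2, Col3a1, Col5a2, Col6a2, Col17a1 and Col18a1). A moderate change of the most abundant fibrillar chains was therefore not detectable with 5 tumors a group. A further 12 chains did not exceed the 75th percentile of the negative control probe sets on any array, and their differences, from -0.27 to 0.17, say little about the transcript. These were Col2a1, Col11a1, Col24a1, Col27a1, Col4a3, Col4a5, Col6a4, Col6a5, Col6a6, Col10a1, Col14a1 and Col26a1. On the other hand 21 chains exceeded that level on all 10 arrays and 9 on some of them.

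Type I collagen is a trimer of Col1a1 and Col1a2 products, and it is the bulk of fibrils in skin and most stroma. Col1a1 stood at 9.18, 9.91, 9.28, 8.49 and 11.11 in BO-112 mice 1 to 5 and at 9.88, 10.49, 9.29, 10.41 and 7.87 in Vehicle mice 1 to 5. Both the highest and the lowest tumors were mice numbered 5, the highest in BO-112 and the lowest in Vehicle, and the groups overlapped between 8.49 and 10.49. The means were 9.59 ± 0.99 (SD, n = 5) and 9.59 ± 1.08 (SD, n = 5), a log2 difference of 0.0075 (95% interval -1.20 to 1.21, limma adjusted p = 0.995). Col1a2 was 9.12, 9.29, 9.59, 8.003 and 10.80 in BO-112 mice 1 to 5 and 9.39, 10.22, 8.97, 10.35 and 7.39 in Vehicle mice 1 to 5. Its difference was 0.093 (95% interval -1.19 to 1.38, limma adjusted p = 0.936). The sign of both estimates turned without the tumors that stood apart. Without BO-112 mice 2 and 5 they were -0.60 for Col1a1 and -0.36 for Col1a2, and neither passed (limma adjusted p = 0.592 and 0.81).

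Type III collagen, a homotrimer of Col3a1 products that co-assembles with type I in skin and vessel walls, varied most of all. Col3a1 was 9.62, 10.07, 9.85, 8.07 and 11.67 in BO-112 mice 1 to 5 and 10.56, 11.31, 9.82, 11.57 and 7.10 in Vehicle mice 1 to 5. Within the Vehicle group alone the highest and lowest tumors differed 22.1-fold, and within the BO-112 group 12.1-fold. The group difference was -0.22 (95% interval -2.03 to 1.60, limma adjusted p = 0.894), and its sign depended on single tumors. It was -0.96 without Vehicle mouse 5 and -0.67 without BO-112 mouse 5. It became 0.23 without BO-112 mouse 4, 0.16 without Vehicle mouse 4 and 0.095 without Vehicle mouse 2, never passing the test. Without BO-112 mice 2 and 5 it was -0.89 (limma adjusted p = 0.649).

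Type V chains start fibrils and set their width. Col5a2 followed the order of the type I chains, with 8.17 in BO-112 mouse 5 and 5.45 in Vehicle mouse 5 as its extremes, and a difference of 0.24 (limma adjusted p = 0.767). The sign turned without BO-112 mouse 5 (-0.13), without Vehicle mouse 5 (-0.019) and without BO-112 mice 2 and 5 (-0.28). Col5a1 was 5.54, 5.43, 5.56, 5.46 and 6.27 in BO-112 mice 1 to 5 and 5.95, 6.63, 5.55, 6.47 and 5.07 in Vehicle mice 1 to 5, a difference of -0.28 (limma adjusted p = 0.567), and 3 of 10 arrays exceeded the negative control level. The other fibrillar chains, Col5a3 and the mostly cartilage-associated Col2a1, Col11a1, Col11a2, Col24a1 and Col27a1, had differences between -0.024 and 0.17. Col5a1 was -0.50 without Vehicle mouse 5, -0.44 without BO-112 mouse 5, -0.15 without Vehicle mouse 4 and -0.11 without Vehicle mouse 2. Over the 11 fibrillar chains the median difference was 0.034, with 0 called in either direction and 0 at an unadjusted limma p under 0.05.

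**Figure D2:**
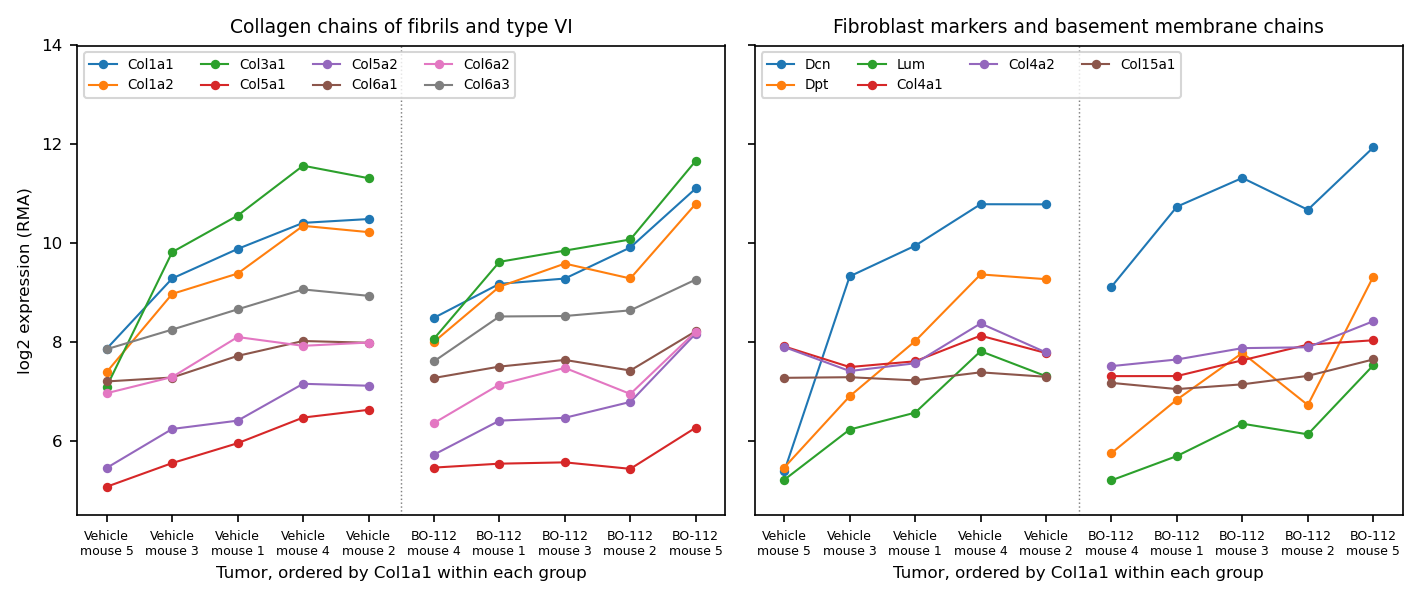
Log2 expression of fibrillar and type VI chains (left) and of fibroblast markers with basement membrane chains (right) in each tumor, ordered within each group by Col1a1. The fibrillar chains climb together from Vehicle mouse 5 to Vehicle mice 2 and 4 and from BO-112 mouse 4 to BO-112 mouse 5, while Col15a1 changes less. Col4a1 and Col4a2 climb too in the BO-112 tumors, over a smaller range (7.31 to 8.04 and 7.51 to 8.42).

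These chains differed more between tumors of a group than between the groups. BO-112 mouse 5 was highest of the 10 tumors in Col1a1, Col1a2, Col3a1, Col5a2, Col6a1, Col6a2 and Col6a3, and Vehicle mouse 5 was lowest in Col1a1, Col1a2, Col3a1, Col5a1, Col5a2 and Col6a1. The spread between mice of a group, pooled over the groups, was 1.56 for Col3a1, 1.10 for Col1a2 and 1.03 for Col1a1, larger than that of 99.7%, 99.2% and 99.02% of all tested probe sets. The difference Col1a1 minus Col1a2 within a tumor had a pooled SD of 0.289, so that most of the spread was shared by the chains of the type I trimer. Fibroblast markers had like extremes. Decorin (Dcn), a proteoglycan that coats fibrils, was 5.38 in Vehicle mouse 5 and at least 9.12 in every other tumor, and it peaked at 11.94 in BO-112 mouse 5. Dermatopontin (Dpt), another fibril-binding protein, ran from 5.46 in Vehicle mouse 5 to 9.37 in Vehicle mouse 4, closely followed by 9.32 in BO-112 mouse 5. The score of 13 fibroblast markers ran from -0.52 to 0.87 in BO-112 and from -0.90 to 0.59 in Vehicle tumors, and its extremes were the same mice, BO-112 mouse 5 and Vehicle mouse 5. The same extremes were not particular to fibroblast markers. These mice were also highest and lowest in the scores of endothelial markers, of laminins and basement membrane partners, and of TGF-beta signalling genes. Of the 13 fibroblast markers 1 was lower in BO-112 tumors, the matrix gene Fbln1 (-0.85, limma adjusted p = 0.0456), beside 2.79% called lower among all probe sets. Of the same 13 markers 4 did not exceed the negative control level on any array. In RNA of whole tumors, fewer fibroblasts and less collagen RNA per fibroblast cannot be told apart, and the part of the fibroblast share in these levels was not tested.

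**Figure D3:**
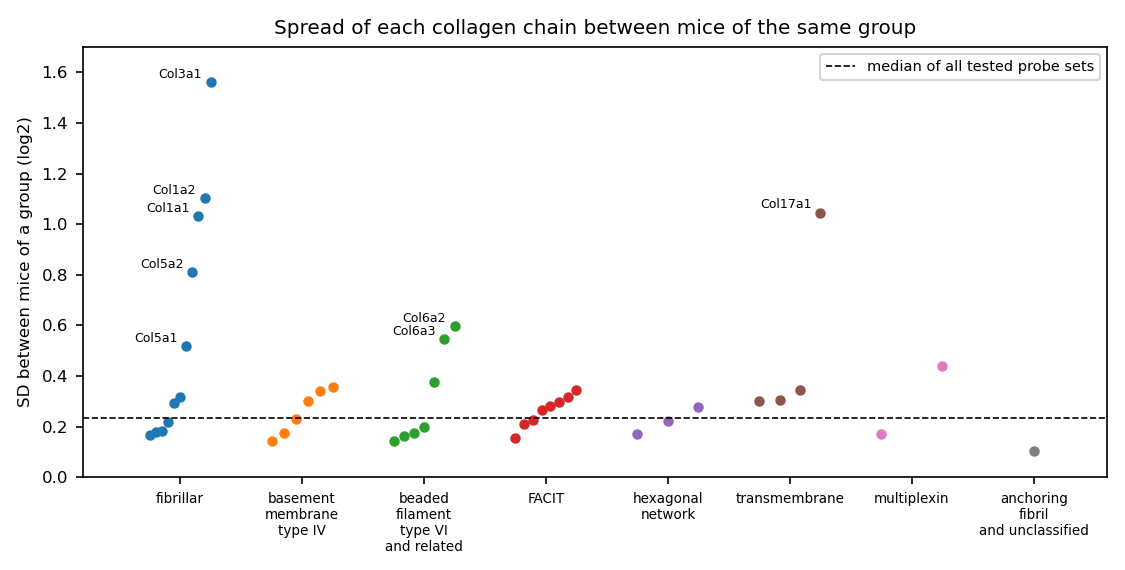
SD between mice of the same group (log2, pooled over BO-112 and Vehicle) for each collagen chain, by class, with the median of all tested probe sets as a dashed line at 0.232. In all 8 chains lie above 0.5, and 5 of them are fibrillar.

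For reference, the bases just before the RefSeq transcription starts of a pair of these co-varying chains are shown here, together with those of Col18a1, the chain nearest to the threshold. RefSeq (GRCm38.p6) gave 37 starts for 34 of the 42 genes. Each run holds 150 bases, 5′ to 3′ on the gene's strand, and ends at the base before the start. Capitals mark matches, on either strand, to any of 3 short motifs. These were the CCAAT box with those letters, the TATA box read as TATAAA, and the GC box read as GGGCGG. The core of the interferon-stimulated response element (GAAA repeated after a gap of 2 bases) was searched as well.
Col1a2, chr6:4505468-4505617, + strand: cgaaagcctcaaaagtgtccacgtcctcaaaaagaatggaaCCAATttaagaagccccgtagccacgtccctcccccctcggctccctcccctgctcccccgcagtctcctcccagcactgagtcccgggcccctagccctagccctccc
Col3a1, chr1:45311388-45311537, + strand: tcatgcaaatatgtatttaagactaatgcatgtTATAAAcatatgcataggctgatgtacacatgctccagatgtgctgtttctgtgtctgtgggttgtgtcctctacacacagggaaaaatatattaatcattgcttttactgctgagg
Col18a1, upstream start, chr10:77166531-77166680, - strand: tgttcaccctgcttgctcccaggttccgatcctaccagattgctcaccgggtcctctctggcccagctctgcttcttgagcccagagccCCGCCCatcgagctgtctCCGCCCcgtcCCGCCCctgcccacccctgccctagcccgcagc
Col18a1, downstream start, chr10:77113706-77113855, - strand: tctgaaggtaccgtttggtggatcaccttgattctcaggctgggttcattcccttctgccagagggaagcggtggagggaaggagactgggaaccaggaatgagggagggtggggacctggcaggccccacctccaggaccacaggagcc

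In the 250 bases before each start, the interferon element core was found at 0 of 37 collagen starts and at 2.98% of all 32851 starts. The GC box was found at 21 of 37 collagen starts and at 32.7% of all starts. The CCAAT box was found at 12 of 37 (33.8% of all starts) and the TATA box at 5 of 37 (12.4% of all starts). A match is a description of the letters and not a site. The motifs searched do not overlap in the runs shown. The Col18a1 runs differ, in that the upstream one holds 3 GC boxes in these 150 bases and the downstream one none of the motifs. The single probe set value of Col18a1 does not tell its starts apart.

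Basement membrane chains varied less. The products of Col4a1 and Col4a2 form the common type IV trimer around vessels, and their genes lie head to head on the same chromosome. Col4a1 was 7.31, 7.95, 7.63, 7.31 and 8.04 in BO-112 mice 1 to 5 and 7.61, 7.78, 7.49, 8.13 and 7.91 in Vehicle mice 1 to 5, a difference of -0.14 (95% interval -0.52 to 0.25, limma adjusted p = 0.659). It was -0.37 without BO-112 mice 2 and 5 (limma adjusted p = 0.223), and with single mice left out it lay between -0.23 (without BO-112 mouse 5) and -0.051 (without Vehicle mouse 4). Col4a2 was 7.65, 7.89, 7.88, 7.51 and 8.42 in BO-112 mice 1 to 5 and 7.57, 7.79, 7.41, 8.38 and 7.90 in Vehicle mice 1 to 5, a difference of 0.061 (95% interval -0.39 to 0.51, limma adjusted p = 0.878), which turned to -0.13 without BO-112 mice 2 and 5. Vehicle mouse 5, lowest in type I and III chains, was not low in either. Their intervals exclude a change of 1 in either direction, unlike those of the type I and III chains. Col4a3 and Col4a5, which join in other type IV trimers, were not above background on any array. Col4a4 exceeded it on 8 arrays and Col4a6 on 2, and Col4a6 had a difference of -0.24 (limma adjusted p = 0.327). The score of 12 endothelial markers was -0.07 to 0.65 in BO-112 and -0.28 to 0.16 in Vehicle tumors, with 0 called, 2 at an unadjusted limma p under 0.05 (25.02% of all probe sets) and a median difference of 0.22. The endomucin gene Emcn was closest (0.83, limma adjusted p = 0.071). The score of 11 mural cell markers was -0.25 to 0.53 in BO-112 and -0.17 to 0.18 in Vehicle tumors, with a median difference of -0.15. The adhesion gene Mcam was the only one called (0.96, limma adjusted p = 0.0242), beside 2.43% called higher among all probe sets, and it is also made by melanoma cells.

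Type VI collagen is a trimer of Col6a1, Col6a2 and Col6a3 products. Col6a3 ran from 7.61 in BO-112 mouse 4 to 9.26 in BO-112 mouse 5, with Vehicle tumors from 7.86 to 9.06, a difference of -0.042 (limma adjusted p = 0.943). Col6a1 ran from 7.27 to 8.22 in BO-112 and from 7.20 to 8.02 in Vehicle tumors, a difference of -0.031 (limma adjusted p = 0.942). Col6a2 was 7.14, 6.95, 7.48, 6.36 and 8.21 in BO-112 mice 1 to 5 and 8.10, 7.99, 7.29, 7.92 and 6.96 in Vehicle mice 1 to 5. It was low in most BO-112 tumors and high in BO-112 mouse 5, a difference of -0.43 (95% interval -1.14 to 0.28, limma adjusted p = 0.44), which was -0.67 with BO-112 mouse 5 omitted and -0.21 with BO-112 mouse 4 omitted. With BO-112 mice 2 and 5 left out the differences were -0.17 for Col6a1, -0.66 for Col6a2 and -0.34 for Col6a3. Of the related chains, Col6a6 had a difference of -0.27 (SE 0.106, limma adjusted p = 0.14) but lay below the negative control level throughout. Col6a4, Col6a5 and Col28a1 had differences between 0.050 and 0.17.

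Chains of one trimer should be needed in fixed proportion, so the difference between a pair of chains was compared per tumor. Over 9 pairs of chains, 0 passed a two-sided exact permutation test after Benjamini-Hochberg adjustment, and the smallest p that 5 against 5 mice allow is 0.00794. Col1a1 minus Col1a2 averaged 0.24 ± 0.37 (SD, n = 5) after BO-112 and 0.32 ± 0.18 (SD, n = 5) after Vehicle (exact permutation p = 0.659, adjusted p = 0.847). Col6a1 minus Col6a3 differed by 0.011 between groups (exact permutation p = 0.944, adjusted p = 0.944). Col6a1 minus Col6a2 was -0.38 to 0.24 in Vehicle and 0.01 to 0.91 in BO-112 tumors, a difference of 0.40 (exact permutation p = 0.0556, adjusted p = 0.25). Col5a1 minus Col5a2 was -0.54 ± 0.14 (SD, n = 5) in Vehicle and -1.06 ± 0.61 (SD, n = 5) in BO-112 tumors (exact permutation p = 0.111, adjusted p = 0.25), with BO-112 mouse 5 lowest at -1.90. Col4a1 minus Col4a2, the pair with the smallest spread within groups (pooled SD 0.151), differed by -0.20 (exact permutation p = 0.111, adjusted p = 0.25) and Col4a5 minus Col4a6 by 0.25 (exact permutation p = 0.246, adjusted p = 0.443). The type I against III and type I against IV comparisons, Col1a1 minus Col3a1 and Col1a1 minus Col4a1, differed by 0.22 and 0.14 (exact permutation p = 0.54 and 0.841, adjusted p = 0.81 and 0.944). With BO-112 mice 2 and 5 left out, Col1a1 minus Col1a2 differed by -0.24, Col5a1 minus Col5a2 by -0.14, Col4a5 minus Col4a6 by 0.47, Col6a1 minus Col6a3 by 0.16 and Col1a1 minus Col4a1 by -0.24.

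**Figure D4:**
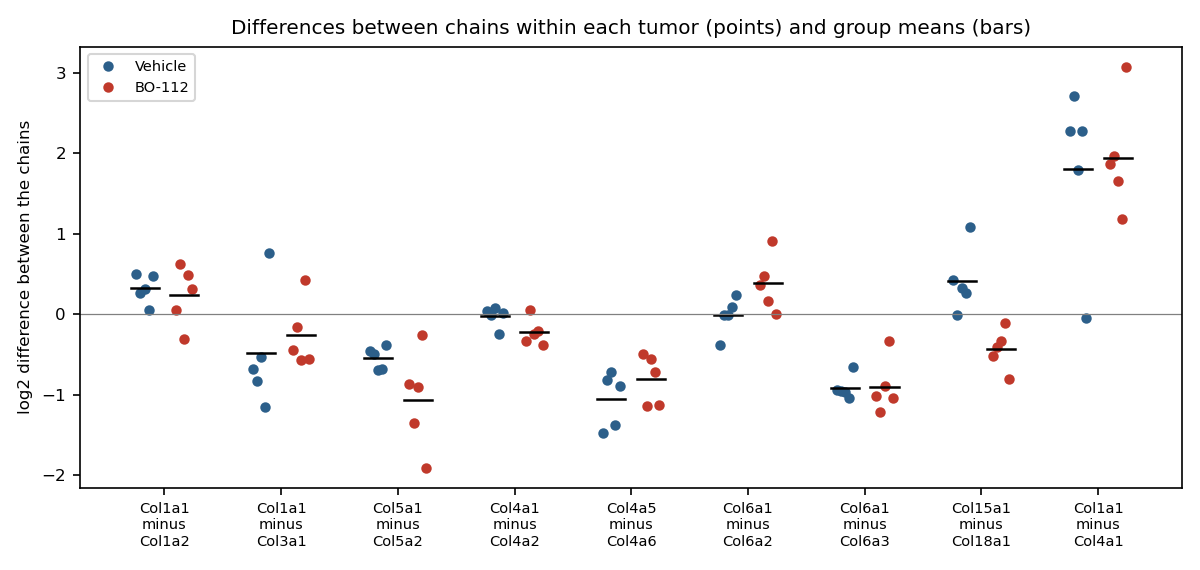
Log2 difference between 2 chains within each tumor for the 9 pairs compared, with the mean of each group as a bar. The groups do not overlap for Col15a1 minus Col18a1, where Vehicle tumors lie at -0.01 or above and BO-112 tumors at -0.11 or below.

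The multiplexins Col15a1 and Col18a1 are proteoglycans of basement membranes around vessels and other structures, and the end of the Col18a1 product can be cut off as endostatin, an inhibitor of vessel growth. Col18a1 was 7.57, 7.72, 7.47, 7.28 and 8.45 in BO-112 mice 1 to 5 and 6.80, 7.31, 6.96, 7.12 and 6.19 in Vehicle mice 1 to 5. Every BO-112 tumor but mouse 4 lay above all Vehicle tumors, and the groups overlapped only between BO-112 mouse 4 and Vehicle mouse 2. The means were 7.70 ± 0.45 (SD, n = 5) and 6.87 ± 0.43 (SD, n = 5), a log2 difference of 0.82 (SE 0.24, 95% interval 0.29 to 1.36), which did not pass after adjustment (limma adjusted p = 0.0714). This chain had the lowest p of the family. It passed without BO-112 mouse 4 (0.93, limma adjusted p = 0.0349) and with the muscle and skin marker scores as covariates (0.74, limma adjusted p = 0.045). It did not pass in the other alternatives, among them the array contrast as a covariate (0.54, limma adjusted p = 0.689) and the fit without BO-112 mice 2 and 5 (0.56, limma adjusted p = 0.189).

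Col15a1, the close relative of Col18a1, was 7.05, 7.31, 7.14, 7.17 and 7.65 in BO-112 mice 1 to 5 and 7.22, 7.30, 7.29, 7.39 and 7.28 in Vehicle mice 1 to 5. Its groups overlapped fully, with a difference of -0.029 (95% interval -0.29 to 0.23, limma adjusted p = 0.901), or -0.17 without BO-112 mice 2 and 5. Col15a1 minus Col18a1 averaged -0.43 ± 0.26 (SD, n = 5) after BO-112 and 0.42 ± 0.41 (SD, n = 5) after Vehicle, a difference of -0.85 without overlap. The exact permutation p was 0.00794, the smallest possible, and the p adjusted over the 9 pairs was 0.0714, so 1 pair alone could not pass after adjustment in this design. The pair includes the chain with the lowest p, so it adds no independent evidence to it. The difference stayed between -0.96 and -0.68 when each mouse was left out in turn, and was -0.74 without BO-112 mice 2 and 5.

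**Figure D5:**
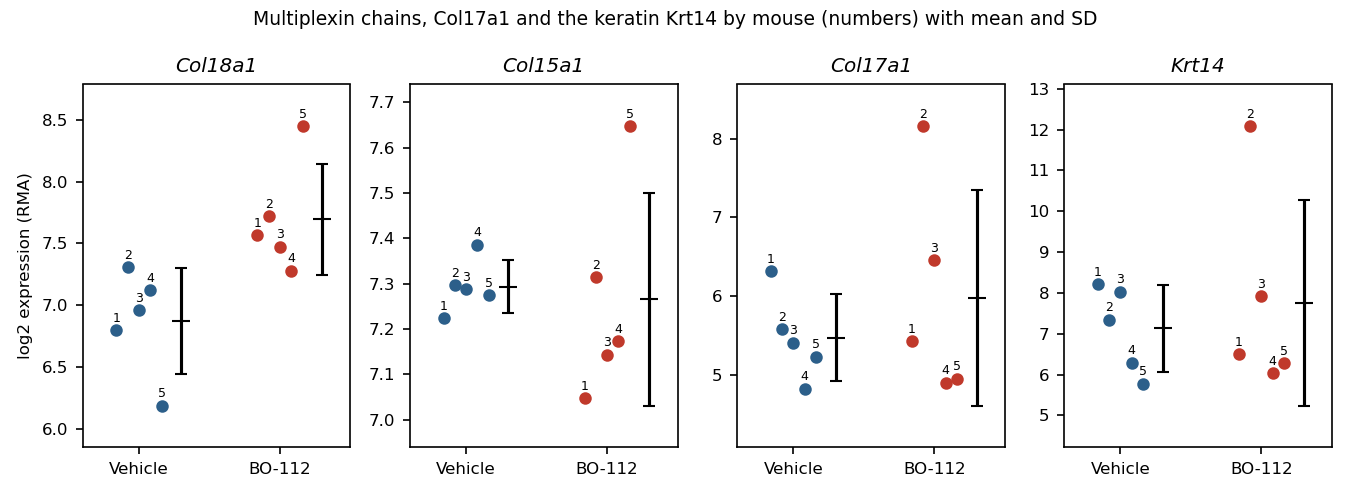
Log2 expression of Col18a1, Col15a1, Col17a1 and the basal keratin gene Krt14 in each mouse (numbered points), with the mean and SD of each group beside them; each panel has its own axis range. Col18a1 is higher in 4 of 5 BO-112 mice than in any Vehicle mouse, and BO-112 mouse 2 is highest in both Col17a1 (8.16) and Krt14 (12.08).

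Among the 4 transmembrane collagens all estimates were above 0 (median 0.34), 0 were called and 0 had an unadjusted limma p under 0.05. The smallest was that of Col13a1 (0.090, limma adjusted p = 0.785). This chain was 8.27 in BO-112 mouse 2 and at most 7.61 in the other BO-112 tumors, against 7.31 to 7.82 in Vehicle tumors. The sign of Col17a1 turned without BO-112 mouse 2 and with array contrast added (-0.45). Col17a1, which anchors basal keratinocytes in hemidesmosomes, was 5.42, 8.16, 6.46, 4.90 and 4.95 in BO-112 mice 1 to 5 and 6.32, 5.58, 5.41, 4.82 and 5.23 in Vehicle mice 1 to 5. Its difference of 0.51 (limma adjusted p = 0.603) rested on BO-112 mouse 2 and was -0.039 without it. The keratin genes of basal epidermis were highest in the same mouse, with Krt14 at 12.08 and Krt5 at 10.60, against at most 8.22 and 8.73 in all other tumors. The score of 14 epidermis and hair markers was -0.80 to 2.23 in BO-112 and -0.74 to 1.14 in Vehicle tumors, with 0 called and 0 at an unadjusted limma p under 0.05. Adding both tissue scores to the fit brought the Col17a1 difference to 0.17 (limma adjusted p = 0.543), and without BO-112 mice 2 and 5 it was 0.12. Col23a1, found in epithelia and other tissues, had a difference of 0.40 (SE 0.20, limma adjusted p = 0.237) and Col25a1, known from neurons and muscle innervation, one of 0.29 (SE 0.18, limma adjusted p = 0.336). Both were higher in BO-112 mouse 2 (7.30 and 7.48) than in any Vehicle tumor, and Col23a1 was as high in BO-112 mouse 5 (7.31). The Col23a1 difference was 0.30 without BO-112 mouse 2 alone and 0.30 without BO-112 mouse 5 alone. Without BO-112 mice 2 and 5 the differences were 0.13 for Col23a1 and 0.11 for Col25a1, and Col25a1 was 0.14 without BO-112 mouse 2 alone.

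Of the 8 fibril-associated collagens with interrupted helices (FACIT), which attach to the surface of fibrils, 0 were called, 1 had an unadjusted limma p under 0.05 (Col9a1) and the median was 0.057. The chains of type IX, best known from cartilage, went different ways without passing. Col9a1 was 6.59, 6.54, 6.13, 6.20 and 6.43 in BO-112 mice 1 to 5 and 6.51, 6.96, 6.40, 6.83 and 7.32 in Vehicle mice 1 to 5, a difference of -0.42 (SE 0.17, limma adjusted p = 0.161). Col9a3 was 7.84, 8.40, 7.60, 7.69 and 7.79 in BO-112 mice 1 to 5 and 7.59, 7.33, 7.19, 7.68 and 7.78 in Vehicle mice 1 to 5, a difference of 0.35 (SE 0.17, limma adjusted p = 0.222), which was 0.21 when BO-112 mouse 2 was omitted and 0.19 without BO-112 mice 2 and 5. The cartilage genes themselves gave 0 calls of 7 and 0 at an unadjusted limma p under 0.05, and 5 of the 7 were not above background on any array. Col9a2, Col14a1, Col16a1, Col19a1, Col20a1 and Col22a1 had differences between -0.16 and 0.15. The hexagonal network chains Col8a1, Col8a2 and Col10a1, found around vessels, in the cornea and in growth cartilage, had differences between 0.058 and 0.16.

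The genes that make, trim, bind, sense and cleave collagen were examined beside the chains, and here a few passed. Of 12 genes for procollagen processing and crosslinking 2 were higher in BO-112 tumors and 0 lower, beside 2.43% higher among all probe sets. Loxl3, a lysyl oxidase that crosslinks collagen and elastin, was 10.21 ± 0.18 (SD, n = 5) against 9.45 ± 0.24 (SD, n = 5), a rise of 0.77 (limma adjusted p = 0.0127). Adamts14, a procollagen N-proteinase, was 7.66 ± 0.28 (SD, n = 5) against 6.94 ± 0.22 (SD, n = 5), a rise of 0.72 (limma adjusted p = 0.0257). The groups did not overlap for either gene, as for 8.69% of all probe sets. Of 20 genes for folding and hydroxylation in the endoplasmic reticulum 0 were called and 4 had an unadjusted limma p under 0.05 (25.02% of all probe sets), with the prolyl hydroxylase P3h1 at -0.47 (limma adjusted p = 0.087) and the procollagen export gene Mia3 at -0.45 (limma adjusted p = 0.141). The medians of these lists were 0.25 and -0.076.

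Among 16 laminins and other basement membrane partners 1 rose, agrin (Agrn), a heparan sulfate proteoglycan, from 8.31 ± 0.17 (SD, n = 5) to 9.10 ± 0.17 (SD, n = 5) (0.78, limma adjusted p = 0.00704), beside 2.43% called higher among all probe sets, and the list median was 0.14. Of 19 collagen-binding matrix partners 0 were called and 4 had an unadjusted limma p under 0.05 (median 0.30), with thrombospondin 1 (Thbs1) at 1.07 (limma adjusted p = 0.106) and Ccn2 at 0.50 (limma adjusted p = 0.125). Of 17 TGF-beta signalling genes, the best known inducers of fibrillar collagen, 0 were called and 6 had an unadjusted limma p under 0.05 (median 0.20), with Tgfbr1 at -0.47 (limma adjusted p = 0.107) and Tgfb3 at -0.29 (limma adjusted p = 0.118). Among all probe sets 25.02% were under the same unadjusted threshold.

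Among 13 collagen receptors and uptake genes 2 fell and 0 rose, beside 2.79% lower among all probe sets. The mannose receptor Mrc1, through which macrophages take up collagen, fell by 2.79 on the log2 scale (limma adjusted p = 0.0112), and 1 of 5 BO-112 arrays exceeded the negative control level. Antxr2, which binds type IV collagen and takes up type VI, fell by 0.51 (limma adjusted p = 0.0176). Of 12 proteases of collagen or of proline-rich peptides 2 were called. The lysosomal cathepsin Ctsl rose by 0.78 (limma adjusted p = 0.0284). Prep, which cuts such peptides, fell by 0.89 (limma adjusted p = 0.0301). The list median was 0.32, and among all probe sets 2.43% were called higher and 2.79% lower. Of 7 macrophage markers Mrc1 was the only one called, and their score was -1.31 to 0.65 in BO-112 and -1.24 to 0.42 in Vehicle tumors.

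The calls of these genes were not equally stable, which was examined after their values had been seen. In 10 fits that each left out 1 mouse, Loxl3, Agrn, Mrc1 and Antxr2 passed in all 10. Adamts14, Ctsl and Mcam passed in 5 of 10, Prep in 4 and Fbln1 in 2, with none changing sign. All 5 of these lost the call without BO-112 mouse 1 and without Vehicle mouse 3 or 4, and their highest limma adjusted p in these fits was 0.0682 (Adamts14), 0.0768 (Ctsl), 0.0677 (Mcam), 0.08 (Prep) and 0.109 (Fbln1). Vehicle mouse 5 also ended all 5 calls, Vehicle mouse 2 those of Adamts14, Mcam, Prep and Fbln1, BO-112 mouse 2 those of Ctsl, Prep and Fbln1, and BO-112 mouse 3 and Vehicle mouse 1 that of Fbln1. Of the 9 genes only Agrn passed with array contrast as a covariate (0.95, limma adjusted p = 0.0332). Without BO-112 mice 2 and 5 Ctsl (0.59, limma adjusted p = 0.078) and Fbln1 (-0.54, limma adjusted p = 0.0689) did not pass and the other 7 did.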

How the data were processed

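Each tumor was profiled on 1 Clariom S Mouse array. The authors applied RMA (version not stated in the sources), and the deposited table gives log2 values. RMA draws dim probe sets toward a floor and reduces shifts shared by most transcripts. Some shift remained, as the array medians of the transcript probe sets ran from 6.30 to 6.43 in BO-112 and from 6.25 to 6.32 in Vehicle tumors. Titles gave each array its group and mouse number, and 0 per-sample columns were left unused.

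Of 22206 transcript probe sets, the study's filter (over 4 in 3 or more samples of a group) kept 21792. Genes were named by the platform annotation, and all 42 collagen symbols equalled those of the reference gene table of GRCm38.p6. The sources do not state the genome build of the probe sets. limma 3.58.1 in R 4.3.3 (lmFit, eBayes, two-sided, no covariate) was run on all 10 arrays. Differences between paired chains had an exact permutation test (two-sided), adjusted over the 9 pairs. Both calculations were tested on simulated data. The number of arrays limits the precision.

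Full values per mouse were given to the type I, III and IV chains, by rule, and to chains described further, chosen after their values were seen. Of each other list up to 4 called genes, or the 2 of lowest p, were named. The members and lists were chosen with earlier results of these data known. Some list genes are not analysed here, as are Col7a1 and Col12a1.

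Alternatives changed the filter (none, or a mean over 6), the scaling (median centring, quantile), the variance model (trend with robust fit, array weights) or the samples (each mouse, or BO-112 mice 2 and 5, omitted). Others added the mouse number as a replicate block, the muscle and skin scores, or the array contrast, meaning how often a positive control probe set was brighter than a negative control. Taking the dimmer probe set of a gene was not run, since 0 chains had several. Same-numbered mice are not the same animal, and their deviations from the group means correlated between -0.31 and 0.39.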

Additional observations from a re-analysis of the deposited data

Results flagged for a closer look

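Dixon's criterion for a single far sample was applied to the 42 chains and the 9 pair differences within each group, 102 tests in all, of which chance alone would mark about 5%. It marked 6. Col5a1 was 6.27 in BO-112 mouse 5 and at most 5.56 in the other BO-112 tumors, and the same mouse was highest in the type I and III chains. Col4a3 was 4.71 in BO-112 mouse 2, a gene not above background on any array. Col28a1 was 7.42 in Vehicle mouse 4, with the next at 7.19. Col26a1 was 5.51 in Vehicle mouse 5, also below the negative control level. Col4a1 minus Col4a2 was -0.25 in Vehicle mouse 4 and Col6a1 minus Col6a3 was -0.65 in Vehicle mouse 5.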

How the results depend on the processing

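The count of collagen chains called stayed at 0 in every alternative but the fit without BO-112 mouse 4 and the fit with muscle and skin scores, where it was 1 (Col18a1). The number of all probe sets called (1138) moved to 27 with array contrast added, 1726 with array weights, 1789 with the muscle and skin scores and 102 with the mouse number as a replicate block, in which 0 chains passed. With 1 mouse left out it lay between 347 and 3134, and it moved by over 1.5 times without BO-112 mouse 1 (446), 2 (591) or 4 (3134) and without Vehicle mouse 2 (347), 3 (404), 4 (371) or 5 (380). The mouse numbers are only names, 1 of 5 numbers was its own best match, and a call lost under the block is not read as a weaker effect. Paired by number, no chain pair could pass, as 5 pairs allow no p under 0.0625.

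Among the chains followed singly several estimates changed sign, most of them near 0, but also those of Col17a1 (0.51 as reported), Col5a2 (0.24) and Col3a1 (-0.22). The values below cover only such chains. Over all 42 chains the sign turned for 15 with array contrast, 13 with array weights and 14 without BO-112 mice 2 and 5. It turned for 11 with median centring, 8 with quantile normalization and 3 with the muscle and skin scores. With the array contrast as a covariate Col1a1 was -0.87, Col1a2 -0.67, Col5a2 -0.37, Col4a2 -0.090 and Col17a1 -0.45, and with array weights Col1a1 was -0.55, Col1a2 -0.29, Col5a2 -0.19 and Col4a2 -0.019. Without BO-112 mice 2 and 5 they were -0.60 (Col1a1), -0.36 (Col1a2), -0.28 (Col5a2) and -0.13 (Col4a2), and Col1a1 minus Col4a1 became -0.24. Median centring gave -0.079 (Col1a1), -0.026 (Col4a2) and -0.074 (Col4a5), with 436 probe sets higher and 855 lower (529 and 609 as reported), and the muscle and skin scores gave -0.24 (Col1a1) and -0.13 (Col1a2). Quantile normalization gave -0.087 (Col4a5), 0.017 (Col6a1), 0.067 (Col6a3) and 0.0019 (Col15a1), and -0.050 for Col6a1 minus Col6a3. The cause was not tested. Leaving out 1 mouse at a time gave -0.42 to 0.28 (Col1a1), -0.37 to 0.43 (Col1a2), -0.96 to 0.23 (Col3a1), -0.13 to 0.48 (Col5a2), -0.077 to 0.20 (Col4a2), -0.038 to 0.096 (Col4a5), -0.18 to 0.064 (Col6a1), -0.23 to 0.18 (Col6a3), -0.12 to 0.026 (Col15a1) and -0.039 to 0.78 (Col17a1). For the pairs it gave -0.18 to 0.049 (Col1a1 minus Col1a2), -0.32 to 0.37 (Col1a1 minus Col4a1) and -0.13 to 0.091 (Col6a1 minus Col6a3). None of these chains passed in any of these fits.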

Other observations

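Decorin and lumican (Lum), related fibril-coating proteoglycans, gave estimates of opposite sign, neither past the test. Dcn averaged 10.76 ± 1.05 (SD, n = 5) after BO-112 and 9.25 ± 2.25 (SD, n = 5) after Vehicle (1.51, limma adjusted p = 0.336), but the difference was 0.55 without Vehicle mouse 5 (limma adjusted p = 0.556). Lum was 6.18 ± 0.87 (SD, n = 5) and 6.63 ± 1.005 (SD, n = 5) (-0.45, limma adjusted p = 0.613). Without BO-112 mice 2 and 5 the Lum difference was -0.88 (limma adjusted p = 0.385). Other host tissues also varied between tumors of a group. The adipocyte score, from 7 markers, was -0.97 to 0.45 in BO-112 and -0.89 to 1.13 in Vehicle tumors, with Adipoq at -1.60 (limma adjusted p = 0.253), and the skeletal muscle score, from 13 markers, was -1.40 to 3.33 and -1.27 to 1.78. Neither list held a called gene or one at an unadjusted limma p under 0.05. Of 5 Schwann cell markers 0 were called and 1 had an unadjusted limma p under 0.05, with Mbp at -0.78 (limma adjusted p = 0.119). Mbp was -0.37 without BO-112 mice 2 and 5 (limma adjusted p = 0.24). Of 10 melanocyte lineage markers only Oca2 was called, and it fell (-1.18, limma adjusted p = 0.0444), beside 2.79% called lower among all probe sets. That call held in 3 of 10 fits with 1 mouse left out (highest limma adjusted p 0.108). It was lost without BO-112 mouse 1 or 2 or any of the Vehicle mice. Oca2 also did not pass without BO-112 mice 2 and 5 (-0.72, limma adjusted p = 0.06) or with array contrast as a covariate (-0.77, limma adjusted p = 0.565). The median difference of the list was -0.37, and 4 of the 10 had an unadjusted limma p under 0.05 (25.02% of all probe sets). Their score was -1.34 to 0.01 in BO-112 and -0.09 to 0.15 in Vehicle tumors, lowest in BO-112 mouse 5.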
